A study of Chlorocebus sabaeus with 3 samples.

Results

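Cell-free RNA from the amniotic fluid of a stillborn vervet monkey (Chlorocebus sabaeus) was compared, gene by gene, with that of an animal labelled alive. Genes were kept where the deposited RPKM (a count of reads scaled to gene length and to depth) was at least 1 in the stillborn or the alive library, which left 10989 of the 33994 genes in each file. The study sequenced the RNA left in amniotic fluid supernatant, the fluid without its cells, to read the fetal transcriptome. It holds 3 libraries, 1 for each status. The stillborn animal carries the sex label M, the alive one F, and the label of the third, a spontaneous abortion, reads NA. The vervet is an Old World monkey, and the labels give no genotype, treatment or gestational age for any of the 3. Status, sex and animal cannot be told apart between single libraries, so no test was made and every difference below is a size. The spontaneous abortion library enters no comparison, and its values stand beside the others for reference.

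Amniotic fluid takes up RNA from the surfaces that face it, among them fetal skin, the mouth and airways, the gut, the urinary tract and the amnion itself. RNA that survives outside cells is carried in vesicles, in protein complexes or in the debris of shed and dying cells. Such a sample mixes many sources, so fewer cells of a type and less RNA per cell cannot be told apart in it.

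The recovered library totals were 17749954 reads in the stillborn and 20220899 in the alive library, with 29926352 in the spontaneous abortion. RPKM values are printed as deposited and in the order stillborn, spontaneous abortion, alive. Ratios are stillborn over alive after TMM scaling (trimmed mean of M-values), which raised every log2 ratio by 0.16 over scaling by total reads. Each ratio has an exact 95% interval from the reads, which covers counting error only and says nothing of the spread between animals. Reads of 0 were taken as 3, and such a ratio is given as "at least". That figure is a point value, and the lower end of its interval can lie below it. Lengths implied by the values passed the whole genomic span in RefSeq for 916 of 9594 genes that could be compared, so RPKM is compared here between libraries, and any ordering or sum of genes by RPKM is rough. At the limit of the rule, GABRA5 was just inside at RPKM 1.0002 in the alive library, and CCDC66 just outside at 0.9999 in the stillborn one.

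The labels were first set against the Y-linked genes. Of 7 such genes in the files, 2 reached RPKM 1. DDX3Y, a Y-linked RNA helicase, stood at RPKM 9.38, 18.8 and 0.178, and ZFY, a Y-linked zinc finger gene, at 3.36, 4.04 and 0.512. Both were high in the stillborn library, labelled M, and low in the alive library, labelled F. The other 5 were at RPKM 0.747 or less in the stillborn and 0.00626 or less in the alive library. Amnion genes were present on both sides, with the keratin KRT24 at RPKM 1073, 1182 and 1437 and the GABA receptor subunit GABRP at 210.5, 197 and 180.1, and neither was past 2-fold. Of markers of other sources, 10 of 19 for liver, 9 of 18 for intestine, 7 of 10 for urothelium and 5 of 16 for lung and airway reached RPKM 1. So did 6 of 14 trophoblast and 8 of 19 fibroblast markers. Fewer did for some other sources, with 1 of 18 kidney, 1 of 16 endothelial, 1 of 19 neuronal and 0 of 17 stomach and pancreas markers.

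Most genes were close between the fluids. A ratio within 1.5-fold was found for 55.2% of genes, the median log2 ratio was -0.02, and the central 90% ran from -1.43 to 1.69. At least 2-fold with an interval that excludes 1 were 1279 genes on the higher side, 11.6% of those compared, and 1154 on the lower side, 10.5%, or 22.1% in either direction. Scaling by total reads gave 1015 higher and 1548 lower, so that the higher share of these genes moved from 52.6% to 39.6%. A gene less than 2.24-fold higher here falls below 2-fold on that scaling, and one 1.79-fold lower reaches it. At least 4-fold were 411 genes higher (3.74%) and 248 lower (2.26%). A gene that passed RPKM 1 in a single library had to lean to its side, and 774 genes passed in the stillborn and 1044 in the alive library alone. Among the 9171 genes at RPKM 1 or above in both, 682 were higher and 628 lower.

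**Figure D1:**
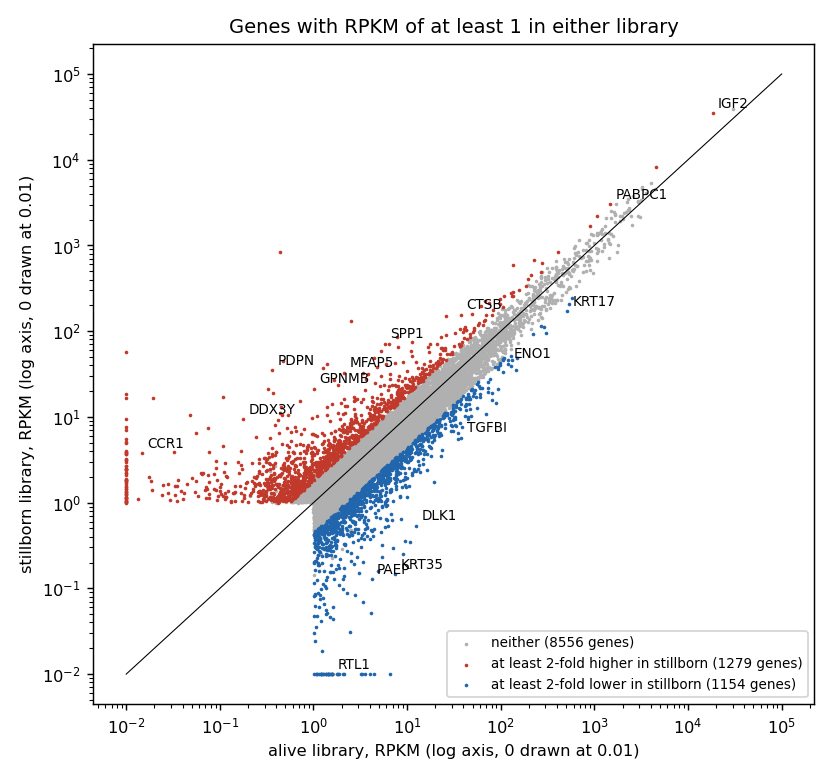
Deposited RPKM of 10989 genes in the alive library (x axis) and in the stillborn library (y axis), both log axes, with 0 drawn at 0.01 and the line of equal RPKM. Red points (1279) are at least 2-fold higher and blue points (1154) at least 2-fold lower in the stillborn library, and most points lie along the line.

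The spread narrowed with abundance. Where the higher library was under a scaled RPKM of 10, 13% of 7091 genes were higher and 12.6% lower. Between 100 and 1000 these shares were 9.47% and 3.74% of 454 genes, with none 4-fold lower. Of the 75 genes at 1000 and above, 5 were higher and 0 lower, with a median log2 ratio of 0.37. The most abundant RNAs were tilted to the stillborn side.

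**Figure D2:**
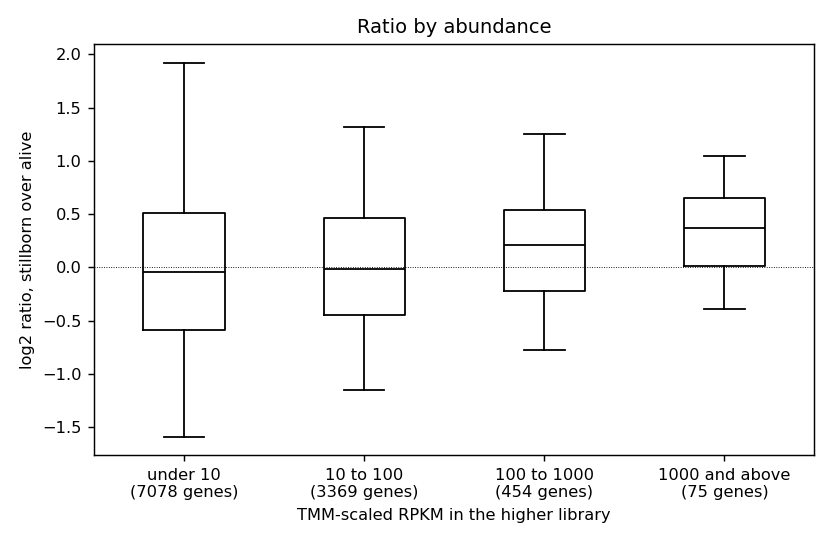
Log2 ratio of stillborn over alive (y axis) for genes grouped by the scaled RPKM of the higher library (x axis). Boxes span the quartiles, the line in each is the median and the whiskers reach the 5th and 95th percentiles of genes, which draw in from the least to the most abundant group. Genes with 3 or fewer reads in both libraries have no ratio and are left out.

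Among the most abundant genes, IGF2, the fetal insulin-like growth factor, stood at RPKM 34904, 26073 and 18289 and was 2.14-fold higher (95% interval 2.13 to 2.14). PABPC1, which binds the poly(A) tails of messenger RNA, was at 3004, 1918 and 1471 and 2.29-fold higher (95% interval 2.27 to 2.3). TPT1, the translationally controlled tumour protein, was at 8312, 5539.5 and 4518 and 2.06-fold higher (95% interval 2.04 to 2.07). Each was highest in the stillborn and lowest in the alive library. On scaling by total reads IGF2, at a ratio of 1.91, and TPT1, at 1.84, missed 2-fold, and PABPC1 kept it. RPS3A was the 1 of 76 measured ribosomal protein genes past 2-fold, at RPKM 1673, 1147 and 906. Its ratio of 2.07 was 1.85 on scaling by total reads, which left 0 of the 76 past 2-fold. The 76 had a median log2 ratio of 0.18 against -0.02 over all genes. The unnamed LOC103226189, listed in RefSeq as a pseudogene, was the fifth gene higher at this abundance, at RPKM 2216, 798 and 1064. It was singled out after its values were seen.

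Of 58 translation factors 4 were higher (6.9%) and 3 lower (5.17%), fewer in each direction than among all genes. EIF3E, a subunit of the initiation factor that brings the ribosome to messenger RNA, was at RPKM 207, 128 and 97.9 and 2.36-fold higher (95% interval 2.3 to 2.42). EIF3A, another subunit of that factor, was at 20.8, 33.8 and 48.6 and 2.09-fold lower (95% interval 2.01 to 2.17). These subunits of 1 complex lay on opposite sides.

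Genes of the lysosome, the acid compartment where cells break down proteins, lipids and sugars, leaned to the higher side. Of 18 cathepsins and other hydrolases at RPKM 1 or above, 9 were higher and 0 lower, with a median log2 ratio of 1.0. Of the 17 that passed in both libraries, 8 were higher. The protease CTSB was at RPKM 156, 34 and 37.6 and 4.65-fold higher (95% interval 4.39 to 4.92). LIPA, the acid lipase that splits cholesteryl esters, was at 8.94, 2.39 and 1.49 and 6.7-fold higher (95% interval 5.28 to 8.57). The stillborn library alone was high for both, while the other libraries lay near each other. CTSD, the aspartic protease of the compartment, was at RPKM 19.4, 11.5 and 8.5 and 2.56-fold higher (95% interval 2.25 to 2.9). GUSB, a glucuronidase, was at 1.74, 1.15 and 0.611 and 3.19-fold higher (95% interval 1.67 to 6.41). NPC2, the cholesterol carrier of the lysosome, was at 942, 477 and 603 and missed the 2-fold limit, and GLB1, a galactosidase, leaned the other way at 8.7, 12.8 and 15.5.

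The proton pump that acidifies lysosomes was less uniform. Of 18 V-ATPase genes 2 were higher and 0 lower, and none of the 15 that passed in both libraries was past 2-fold. ATP6V0D2, a subunit typical of osteoclasts and macrophages, was at RPKM 1.82, 0.036 and 0.0356 and 57.4-fold higher (95% interval 15.4 to 481). Its widely expressed counterpart ATP6V0D1 was at 9.29, 12 and 15.4, lower in the stillborn library but within 2-fold. Among 48 RAB GTPases, switches of vesicle traffic, 5 were higher and 4 lower, near the shares of all genes. RAB7B, of late endosomes, was at RPKM 2.71, 1.38 and 0.288 and 10.5-fold higher (95% interval 7.39 to 15.4). RAB38, needed for pigment and other lysosome-related granules, was at 0.388, 0.69 and 3.25 and 7.49-fold lower (95% interval 4.02 to 15.5). The 14 autophagy genes had none past 2-fold in either direction.

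Genes of activated macrophages stood beside the lysosomal ones. GPNMB, a glycoprotein of lipid-laden macrophages and of melanocytes, was at RPKM 21.3, 0.912 and 1.0 and 23.7-fold higher (95% interval 18.1 to 31.7). CHIT1, the chitinase secreted by such macrophages, was at 20.9, 0.699 and 0.325 and 72-fold higher (95% interval 39.9 to 145). IFI30, a lysosomal thiol reductase, was at 32.4, 3.43 and 3.41 and 10.6-fold higher (95% interval 8.27 to 13.8). All of them were far above both other libraries in the stillborn one. Of 15 monocyte and macrophage markers in the files, 8 reached RPKM 1, of which 7 were higher and 0 lower, with 5 higher among the 6 that passed in both libraries. CD68, a glycoprotein of their lysosomes, was at RPKM 14.9, 5.46 and 4.37, and the scavenger receptor MSR1 at 1.75, 0.237 and 0.0757. CD14, a receptor for bacterial lipopolysaccharide, was at 1.33, 0.165 and 1.44 with no such difference. MARCO was at 0 in every library, and CD163 and C1QA were at RPKM 0.188 or less in each. The summed RPKM of the 15, set between libraries only, came to 62.0, 13.6 and 20.1 in the order of libraries used throughout, and its part in the lysosomal difference was not tested.

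**Figure D3:**
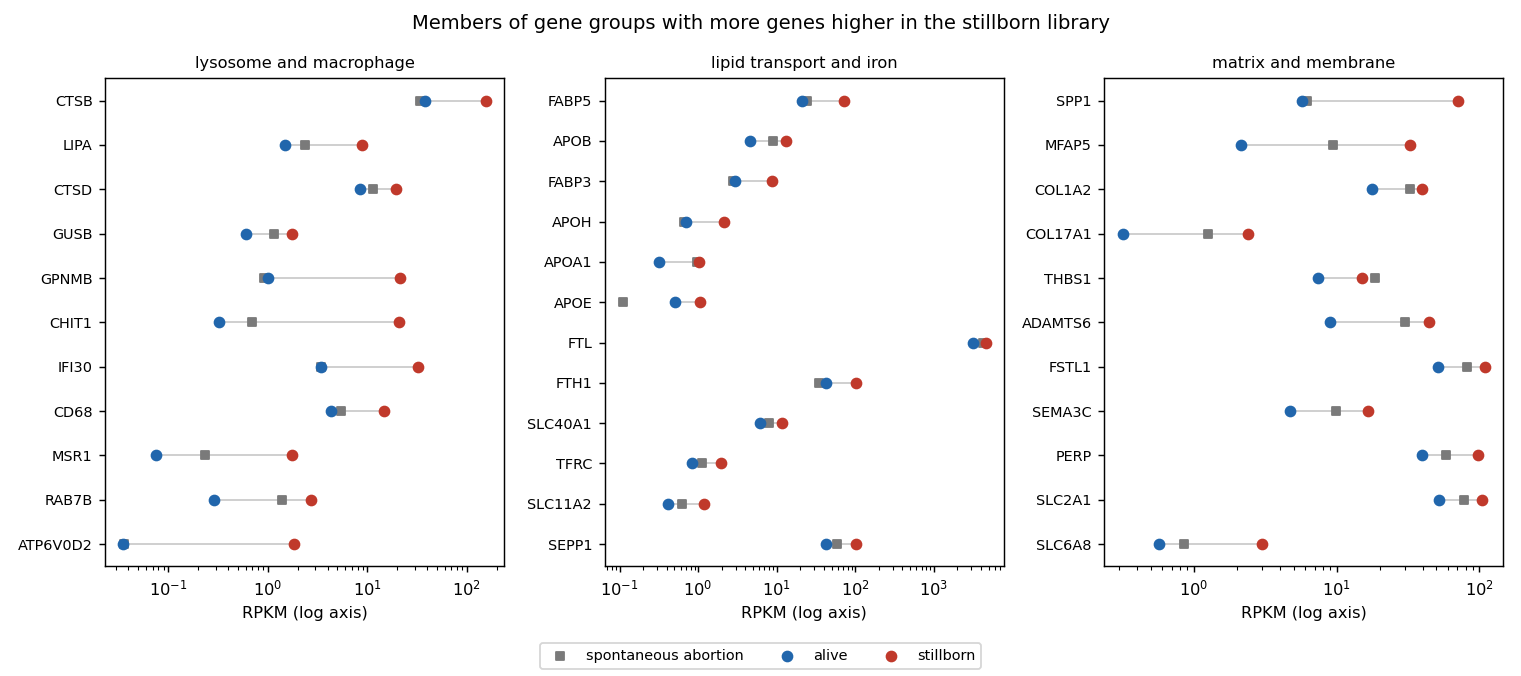
RPKM (log axis) of named genes in the stillborn (red circles), spontaneous abortion (grey squares) and alive (blue circles) libraries, picked as higher in the stillborn library. Members of the same groups that were lower or near equal, such as APOL4 and ADAMTS5, are not drawn. Axon guidance genes (SEMA3C) had 1 member higher and 2 lower. Grey lines join stillborn and alive. Every red circle lies to the right of the blue one, which follows from the choice of genes.

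SPP1, osteopontin, a secreted matrix protein of macrophages and epithelia, was at RPKM 71.1, 6.2 and 5.76 and 13.8-fold higher (95% interval 12.7 to 15). MFAP5, a microfibril protein of elastic tissue, was at 32.9, 9.36 and 2.14 and 17.2-fold higher (95% interval 14.4 to 20.7). OLFML3, a secreted olfactomedin-like protein, was at 85.3, 79 and 7.86 and 12.1-fold higher (95% interval 10.7 to 13.7). For SPP1 the spontaneous abortion library lay near the alive one, and for OLFML3 near the stillborn one.

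Of 12 collagens, 3 were higher and 1 lower, or 1 and 0 of the 8 that passed in both libraries. COL17A1, the hemidesmosomal collagen that anchors basal keratinocytes, was at RPKM 2.39, 1.26 and 0.317 and 8.44-fold higher (95% interval 6.96 to 10.3). COL1A2, a chain of the fibrillar collagen of skin and bone, was at 39.5, 32.4 and 17.6 and 2.52-fold higher (95% interval 2.38 to 2.66), while its partner chain COL1A1 was at 4.34, 8.02 and 4.41 and within 2-fold. The median of the list changed sign with scaling, so no direction is given for collagens as a family. Laminins and integrins, which tie epithelium to its basement membrane, had 6 higher and 0 lower of 20. ITGA6, the alpha chain of the hemidesmosomal integrin, was at RPKM 37.2, 26.8 and 18.8 and 2.21-fold higher (95% interval 2.12 to 2.31), under 2-fold on scaling by total reads, but its partner ITGB4 was at 1.38, 1.51 and 1.67. Of those 6 higher genes, 2 passed RPKM 1 in both libraries.

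Proteases of the matrix were found on either side, with 5 of 19 higher and 3 lower, or 3 and 1 of the 12 that passed in both libraries. ADAMTS6, a secreted metalloproteinase, was at RPKM 44.1, 30.05 and 8.97 and 5.5-fold higher (95% interval 5.31 to 5.69). ADAMTS5, which cleaves aggrecan, was at 0.345, 0.913 and 2.63 and 6.81-fold lower (95% interval 5.77 to 8.08). The inhibitors TIMP2, at 31.8, 19.7 and 17.1, and TIMP3, at 27.9, 18.2 and 14.4, were higher in the stillborn library by 2.08 and 2.17-fold, both under 2-fold on scaling by total reads, and TIMP1, at 59.3, 62.3 and 74.1, was within 2-fold. CTGF, a matricellular growth factor induced by YAP, was at RPKM 14.9, 7.38 and 3.23 and 5.17-fold higher (95% interval 4.32 to 6.21). F3, tissue factor, which starts clotting, was at 44.1, 33.5 and 12.4 and 3.98-fold higher (95% interval 3.55 to 4.47). Of 13 YAP and TEAD targets 3 were higher and 1 lower, the latter AMOTL1, an angiomotin-like junction protein, at 7.06, 12.1 and 20.7.

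Lipid carriers leaned to the stillborn side. Of 15 apolipoproteins and fatty acid binding proteins 8 were higher and 1 lower, and of the 9 that passed in both libraries 3 were higher and 0 lower. FABP5, the epidermal fatty acid binding protein, was at RPKM 71.6, 24.4 and 21 and 3.82-fold higher (95% interval 3.35 to 4.36). APOB, the structural protein of low density lipoprotein made in liver and gut, was at 13.1, 8.97 and 4.52 and 3.26-fold higher (95% interval 2.97 to 3.57). The exception, APOL4, was at 0.0827, 1.67 and 2.8 and 30.2-fold lower (95% interval 8.08 to 254). APOA2, of high density lipoprotein, was at 146, 208 and 189 and within 2-fold. Of 10 liver genes 4 were higher and 1 lower, or 2 and 1 of the 8 that passed in both libraries. Of the 10, 5 lay above and 5 below a log2 ratio of 0, and the sign of the liver median changed with scaling. SERPINA1, alpha-1-antitrypsin, was at 32.5, 21.8 and 14.9 and 2.44-fold higher. ALB, albumin, was at 1.51, 0.78 and 1.83, and RBP4, the retinol carrier, was at 4.6, 8.06 and 17.2 and 3.34-fold lower. Of 9 intestinal genes 2 were higher and 0 lower, and none of the 5 that passed in both libraries was past 2-fold.

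Enzymes of sterol and fatty acid synthesis had a few members apart. SQLE, squalene epoxidase, was at RPKM 2.52, 1.81 and 0.502 and 5.61-fold higher (95% interval 3.75 to 8.64). SCD, the desaturase that makes oleate, was at 8.76, 5.1 and 2.62 and 3.74-fold higher (95% interval 3.27 to 4.28). ELOVL6, which lengthens fatty acids, was at 1.49, 1.67 and 4.05 and 2.43-fold lower (95% interval 2.04 to 2.92). Of 14 cholesterol genes 3 were higher and 0 lower, and of 7 for fatty acid synthesis 1 was higher and 1 lower. Of 12 genes for lipid droplets and fatty acid oxidation 4 were lower and 0 higher, with 3 lower among the 11 that passed in both libraries. ACADVL, the very long chain acyl-CoA dehydrogenase, was at 3.21, 8.25 and 11.1 and 3.08-fold lower (95% interval 2.53 to 3.77). The others were CPT2, a carnitine acyltransferase of fatty acid oxidation, at 1.87, 2.76 and 4.21, CIDEC, a lipid droplet protein, at 0.459, 0.812 and 1.38, and PDK4, the kinase that inhibits pyruvate dehydrogenase, at 2.07, 6.54 and 5.53.

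Of 103 solute carriers, the membrane transporters of ions and nutrients, 21 were higher and 2 lower. Of the 77 that passed in both libraries, 11 were higher and 0 lower. SLC6A8, the creatine transporter, was at RPKM 3.0, 0.849 and 0.569 and 5.9-fold higher (95% interval 4.22 to 8.41). SLC2A1, the glucose transporter GLUT1, was at 105, 77.6 and 52.1 and 2.25-fold higher (95% interval 2.15 to 2.34). Carriers of zinc, manganese and iron were among the higher ones: SLC30A1 was at 3.95, 3.19 and 1.31, SLC39A8 at 7.51, 6.05 and 2.54, SLC30A4 at 5.61, 4.55 and 2.27 and SLC11A2 at 1.19, 0.629 and 0.414. Iron handling had 4 of 9 higher and 0 lower, with 2 higher among the 7 that passed in both libraries. FTH1, the ferritin heavy chain, was at RPKM 103, 35 and 42.7 and 2.7-fold higher (95% interval 2.5 to 2.92). TFRC, the transferrin receptor, was at 1.97, 1.14 and 0.829 and 2.66-fold higher (95% interval 2.29 to 3.09). FTL, the ferritin light chain, was at 4599.97, 4247 and 3198, a ratio of 1.61 that missed the limit. SEPP1, the plasma carrier of selenium, was the 1 of 12 selenoproteins past 2-fold, at 103, 58.1 and 42.2 and 2.74-fold higher (95% interval 2.59 to 2.9).

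AQP4, a water channel of astrocytes and some epithelia, was the single aquaporin of 11 in the files to reach RPKM 1. It was at 1.66, 0.178 and 0.0282 and 65.9-fold higher (95% interval 22.1 to 323). Other genes near 0 in the alive library included CYP3A43, a cytochrome P450, at 1.22, 0.462 and 0.0244 and 56.1-fold higher (95% interval 9.55 to 2265), and TPPP3, a tubulin-binding protein of ciliated cells, at 1.97, 1.1 and 0.12 and 18.4-fold higher (95% interval 9.7 to 39.1). TPPP3 was the 1 of 16 cilia genes to reach RPKM 1, and the others were at 0.56 or less in both libraries compared. ACTC1, cardiac actin, was at 2.94, 3.25 and 0.222 and 14.8-fold higher (95% interval 8.4 to 28.4), with the spontaneous abortion library as high as the stillborn one.

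Stress programmes were mixed and mostly small. Of 16 genes of the unfolded protein response, which adds folding capacity to the endoplasmic reticulum, 4 were higher and 2 lower. Among the 14 that passed in both libraries 3 were higher and 1 lower. DNAJB9, a co-chaperone of the organelle, was at RPKM 5.04, 2.14 and 0.963 and 5.85-fold higher (95% interval 4.28 to 8.14). HSP90B1, its HSP90 homologue, was at 70.7, 42 and 35.9 and 2.21-fold higher (95% interval 2.09 to 2.33), under 2-fold on scaling by total reads. PDIA4, a disulfide isomerase, was at 1.7, 1.72 and 6.01 and 3.16-fold lower (95% interval 2.5 to 4.04), against PDIA3 at 9.91, 8.78 and 4.07 on the higher side. NUPR1, a stress-induced chromatin protein, was at 9.49, 0.782 and 2.54 and 4.17-fold higher (95% interval 2.96 to 5.99). None of 16 cytosolic heat shock proteins, 8 chaperonin subunits or 12 circadian clock genes was past 2-fold. Of 14 antioxidant targets of NRF2, 3 were higher and 0 lower, among them GCLC, which catalyses the first step of glutathione synthesis, at 18.5, 9.29 and 7.71 and 2.68-fold higher (95% interval 2.5 to 2.88). Glutathione and peroxiredoxin enzymes had 1 of 23 higher and 4 lower, with GSTM3, a glutathione transferase, at 0.897, 2.38 and 4.12 and 4.11-fold lower (95% interval 2.43 to 7.36).

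Immediate early genes, switched on within minutes of a stimulus, had 2 of 16 higher and 2 lower, or 12.5% each way, near the shares of all genes. DUSP1, a phosphatase of MAP kinases that glucocorticoids also induce, was at RPKM 51.4, 38.7 and 11.2 and 5.14-fold higher (95% interval 4.64 to 5.71). JUNB, a subunit of AP-1, was at 0.676, 2.37 and 3.56 and 4.71-fold lower (95% interval 2.47 to 9.89). FOS, its usual partner, was at 57, 85.5 and 54.2, a ratio of 1.18.

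Epithelial families contained members on both sides. Among kallikreins, serine proteases of skin and glands, 7 of 15 reached RPKM 1 and none of them lay within 2-fold. KLK13 was at RPKM 1.39, 0.164 and 0.0187, KLK11 at 2.26, 0.844 and 0.11, KLK6 at 1.12, 0.221 and 0 and KLK14 at 1.45, 0.153 and 0, all on the higher side. KLK4, best known from enamel and prostate, was at 1.18, 10.8 and 9.95 and 7.56-fold lower (95% interval 5.4 to 10.9), and KLK3 at 0.0299, 0.261 and 1.01 and KLK1 at 1.01, 3.08 and 2.94 were lower too. Each of the 4 higher ones was under RPKM 1 in the alive library, KLK6 and KLK14 at 0 reads. Keratins had 7 of 22 higher and 5 lower, and the sign of their median changed with scaling. KRT10, of the upper epidermis, was at 29.6, 10.8 and 8.21 and 4.04-fold higher (95% interval 3.77 to 4.32), and the basal KRT15 was at 2.41, 12.5 and 16.3 and 6.04-fold lower (95% interval 5.31 to 6.9). Desmosomes, the junctions that rivet keratinocytes together, divided in the same manner, with 4 of 13 genes higher and 2 lower. PERP, a desmosomal membrane protein, was at 97.5, 58.7 and 39.6 and 2.76-fold higher (95% interval 2.6 to 2.93). DSP, desmoplakin, which binds keratin filaments, was at 18.9, 34.3 and 51.9 and 2.45-fold lower (95% interval 2.38 to 2.53). JUP, plakoglobin, was at 15.3, 32.4 and 37.1 and 2.17-fold lower (95% interval 2.05 to 2.29).

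Other epithelial genes higher in the stillborn library included transcription factors, with 5 of 15 higher and 0 lower, or 3 and 0 of the 12 that passed in both libraries. On scaling by total reads 3 of the 15 were at least 2-fold higher. HOPX, a homeodomain protein of airway and skin, was at RPKM 91.4, 36.9 and 25.9 and 3.95-fold higher (95% interval 3.84 to 4.06). EHF, an ETS factor of epithelia, was at 4.07, 1.34 and 0.863 and 5.27-fold higher (95% interval 4.77 to 5.84). MAL2, a raft protein that sorts cargo to the apical surface, was at 149, 52.1 and 25.8 and 6.48-fold higher (95% interval 6.07 to 6.92). Of 13 serpins, inhibitors of serine proteases, 6 were higher and 1 lower, with 3 and 0 among the 9 that passed in both libraries: SERPINB2, of keratinocytes and macrophages, was at 58.5, 37.4 and 11.1 and 5.91-fold higher (95% interval 5.33 to 6.57), and SERPING1, the complement C1 inhibitor, was at 0.634, 1.45 and 3.82 and 5.38-fold lower (95% interval 3.9 to 7.6). Of 6 mucins 3 were higher and 0 lower, among them the membrane mucin MUC12 at 2.31, 0.545 and 0.516 and 5.01-fold higher (95% interval 4.31 to 5.84). All of these were under RPKM 1 in the alive library, and none of the 3 mucins that passed in both libraries was past 2-fold.

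Of 7 urothelial markers 1 was higher and 1 lower, near the shares of all genes. UPK1B, a uroplakin of the bladder lining, was at RPKM 26.5, 20.3 and 13.2 and 2.25-fold higher (95% interval 2.08 to 2.43). UPK1A, another uroplakin, had 0 stillborn reads, at 0, 0.0417 and 1.29, and was at least 5.49-fold lower. The sign of the urothelial median changed with scaling. Of 5 lung and airway markers 3 were higher and 1 lower, with 1 higher among the 2 that passed in both libraries. The secretoglobin SCGB1A1 of club cells was at 3.84, 0.672 and 0.952 and 4.52-fold higher (95% interval 2.79 to 7.62), and SCGB3A1 was at 0.502, 0.298 and 1.83 and 3.25-fold lower (95% interval 1.79 to 6.31).

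Signalling families contributed single ligands and receptors. BMP and TGF-beta signalling had 6 of 28 genes higher (21.4%) and 4 lower (14.3%), against 11.6% and 10.5% of all genes. Among the 19 that passed in both libraries 2 were higher and 1 lower, where 7.44% and 6.85% of all such genes were. The sign of the family's median changed with scaling, so no direction is given for it. FGF1, a fibroblast growth factor, was at RPKM 2.88, 1.49 and 0.333 and 9.66-fold higher (95% interval 8.53 to 11). BMP5, a bone morphogenetic protein, was at 0.0514, 2.18 and 1.41 and 24.5-fold lower (95% interval 10.3 to 76.4). DKK4, a secreted inhibitor of WNT, was at 1.1, 0 and 0.0133 and 93-fold higher (95% interval 16.2 to 3725) on 1 read in the alive library. SEMA3C, a secreted guidance cue, was at 16.7, 9.93 and 4.74 and 3.94-fold higher (95% interval 3.56 to 4.37). EPHA4, an ephrin receptor, was at 0.17, 0.572 and 1.76 and 9.25-fold lower (95% interval 6.63 to 13.2). Of the ID genes, targets of bone morphogenetic protein signalling, ID2 was at 26.2, 18.9 and 13.6 and 2.16-fold higher, ID1 at 1.04, 0.924 and 0.253 and ID4 at 1.19, 1.24 and 0.455, all higher in the stillborn library, ID2 under 2-fold on scaling by total reads.

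On the lower side, enzymes of glycolysis, which turns glucose into pyruvate, had 6 of 16 lower and 1 higher, with 5 lower among the 15 that passed in both libraries. ENO1, enolase, was at RPKM 41.7, 86.4 and 120.1 and 2.57-fold lower (95% interval 2.43 to 2.72). PKM, pyruvate kinase, was at 12.8, 28.6 and 35.9 and 2.5-fold lower (95% interval 2.27 to 2.76). TPI1, the triose isomerase, was at 51.5, 86.1 and 128 and 2.22-fold lower (95% interval 2.07 to 2.37). All of these were lowest in the stillborn and highest in the alive library. The exception PGAM1, phosphoglycerate mutase, was at 13.7, 8.78 and 7.53 and 2.03-fold higher (95% interval 1.69 to 2.45), a call lost on scaling by total reads. LDHA, lactate dehydrogenase, was at 435, 532 and 377, and GAPDH at 148, 228 and 269, neither past 2-fold. Of 12 hypoxia targets outside this list 3 were higher and 0 lower, but the 3 became 1 on scaling by total reads and also on log2(RPKM + 1).

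Mitochondrial genes were lower about as often as all genes. SDHA, the flavoprotein of succinate dehydrogenase, was at RPKM 4.55, 8.47 and 14.3 and 2.8-fold lower (95% interval 2.34 to 3.37), while its partner SDHB was at 38.7, 38.1 and 48.3. Of 76 respiratory chain genes 7 were lower and 1 higher, and of 21 in the citric acid cycle 3 were lower and 0 higher, shares near the 10.5% of all genes. Mitochondrial ribosomal proteins had 8 of 73 lower and 1 higher. On scaling by total reads 14 were lower, where 1548 of all 10989 genes were lower.

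**Figure D4:**
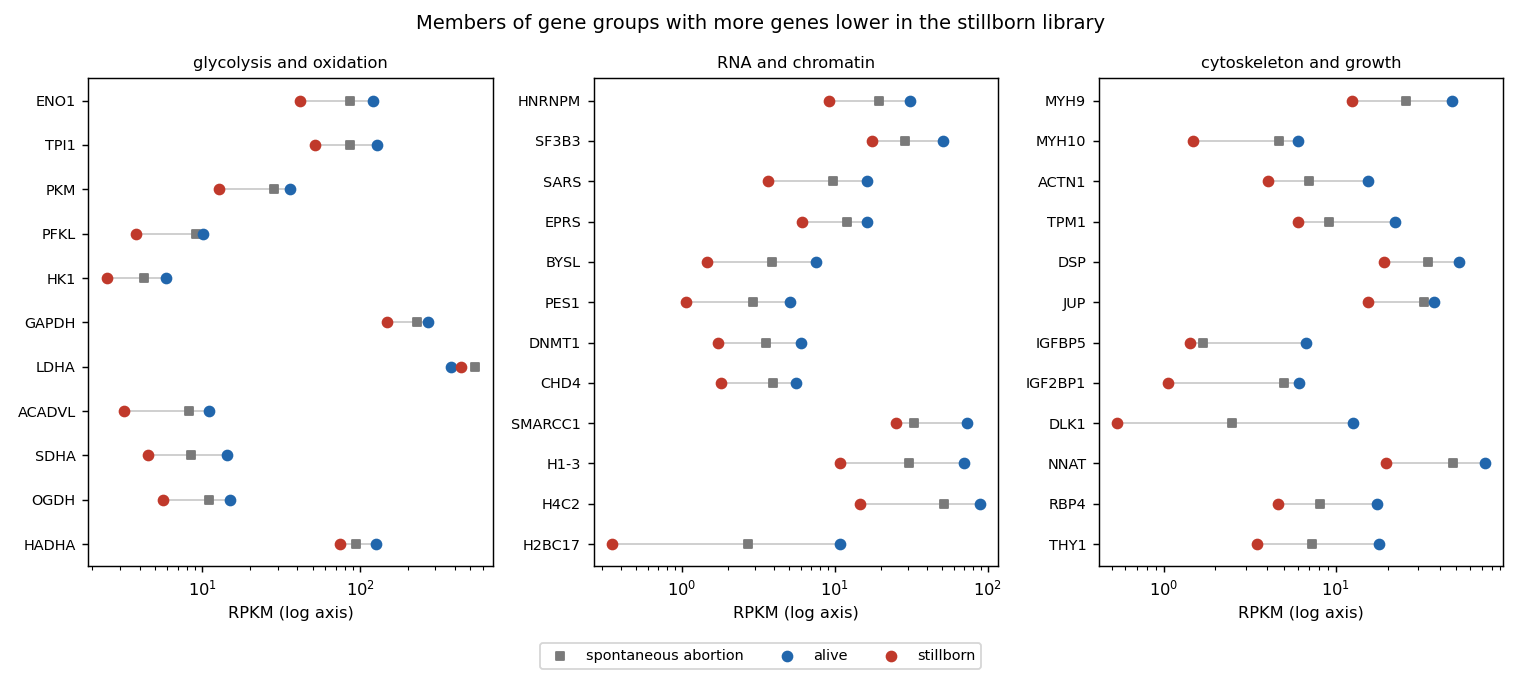
RPKM (log axis) of named genes in the stillborn (red circles), spontaneous abortion (grey squares) and alive (blue circles) libraries, most of them picked as lower in the stillborn library. Members on the other side are not drawn, and desmosomal genes (DSP, JUP) and fibroblast markers (THY1) had more members higher than lower. Grey lines join stillborn and alive. The red circle lies left of the blue one in every row but LDHA, which follows from the choice of genes.

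Genes that build ribosomes and charge tRNA leaned to the lower side. Of 22 ribosome biogenesis genes 7 were lower and 0 higher, with 6 lower among the 21 that passed in both libraries. BYSL, which matures the small subunit, was at RPKM 1.46, 3.9 and 7.6 and 4.66-fold lower (95% interval 3.46 to 6.4). PES1, which matures the large subunit, was at 1.06, 2.93 and 5.07 and 4.27-fold lower (95% interval 3.07 to 6.06). NCL, nucleolin, was at 288, 372 and 496, and FBL, fibrillarin, at 159, 144 and 224, both lower without reaching 2-fold. Aminoacyl-tRNA synthetases had 3 of 19 lower, 0 higher and 17 below a log2 ratio of 0, with a median of -0.63. SARS, the seryl enzyme, was at 3.66, 9.76 and 16.2 and 3.95-fold lower (95% interval 3.12 to 5.05). EPRS, the glutamyl-prolyl enzyme, was at 6.1, 12 and 16.4 and 2.4-fold lower (95% interval 2.27 to 2.54), and QARS, the glutaminyl enzyme, was at 98.2, 87.7 and 109, a ratio of 1.01. Against these, the 76 ribosomal proteins themselves had 0 members lower.

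Splicing factors had 11 of 53 lower and 1 higher, or 8 and 0 of the 49 that passed in both libraries, with 47 below a log2 ratio of 0. HNRNPM, which binds nascent transcripts, was at RPKM 9.17, 19.6 and 31.1 and 3.03-fold lower (95% interval 2.7 to 3.41). SF3B3, of the branch point complex, was at 17.5, 28.7 and 50.9 and 2.6-fold lower (95% interval 2.46 to 2.76). SNRPA, of the U1 particle, was at 0.437, 0.926 and 2.0 and 4.08-fold lower (95% interval 3.0 to 5.66). Each was lowest in the stillborn and highest in the alive library. Chromatin enzymes had 13 of 63 lower and 0 higher, with 9 lower among the 52 that passed in both libraries. DNMT1, which copies DNA methylation, was at 1.74, 3.54 and 6.06 and 3.12-fold lower (95% interval 2.83 to 3.44). SMARCC1, a core subunit of the SWI/SNF remodeller, was at 25.3, 32.9 and 72.8 and 2.57-fold lower (95% interval 2.46 to 2.69). CHD4, of the NuRD complex, was at 1.82, 3.93 and 5.63 and 2.77-fold lower (95% interval 2.58 to 2.97).

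Genes that serve dividing cells stood beside these. Of 27 histone genes 16 were lower and 0 higher, with 14 among the 24 that passed in both libraries. H1-3, a linker histone, was at RPKM 10.9, 30.8 and 70.4 and 5.78-fold lower (95% interval 5.08 to 6.59). H4C2, a core histone, was at 14.5, 51.9 and 88.9 and 5.46-fold lower (95% interval 4.92 to 6.08). Histone genes lie in near-identical copies, so reads may be divided among them. DNA repair had 8 of 21 lower and nucleotide synthesis 5 of 19 lower, with 0 higher in either. Among those that passed in both libraries, 3 of 13 and 3 of 16 were lower. PARP1, which marks DNA breaks, was at 4.83, 13.2 and 12.3 and 2.27-fold lower (95% interval 1.99 to 2.58). CAD, which opens pyrimidine synthesis, was at 0.714, 2.13 and 2.83 and 3.54-fold lower (95% interval 2.82 to 4.5). DNA replication and mitosis genes were lower in 16 of 27 and 23 of 25, or 8 of 19 and 15 of 17 that passed in both libraries, and their part in the chromatin and ribosome differences was not tested.

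The contractile and cytoskeletal genes had 7 of 23 lower and 2 higher, or 6 lower and 0 higher of the 20 that passed in both libraries. MYH9, the non-muscle myosin heavy chain, was at RPKM 12.3, 25.4 and 47.4 and 3.44-fold lower (95% interval 3.26 to 3.63). ACTN1, an actin crosslinker, was at 4.02, 7.02 and 15.4 and 3.42-fold lower (95% interval 3.17 to 3.7). TPM1, a tropomyosin, was at 6.0, 9.17 and 22.1 and 3.3-fold lower (95% interval 3.17 to 3.43). ACTB, beta-actin, was at 663, 793 and 1063, lower but within 2-fold, and none of 6 tubulins or 9 annexins was past it. TGFBI, a secreted adhesion protein induced by TGF-beta, was at 5.72, 21 and 38 and 5.94-fold lower (95% interval 5.44 to 6.5), and THY1, a surface glycoprotein of fibroblasts, at 3.51, 7.31 and 17.8 and 4.55-fold lower (95% interval 3.85 to 5.4). Of 8 fibroblast markers 2 were higher and THY1 was the 1 lower, with a median log2 ratio of 0.40.

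Aldehyde dehydrogenases and retinoid enzymes, taken as 1 list, had 6 of 15 lower and 0 higher, with 3 lower among the 12 that passed in both libraries. ALDH1A1, which makes retinoic acid, was at RPKM 0.364, 0.777 and 1.8 and 4.42-fold lower (95% interval 3.18 to 6.26). RARRES2, chemerin, a retinoid-responsive attractant, was at 0.379, 2.16 and 3.99 and 9.41-fold lower (95% interval 3.82 to 30.04). Other redox genes were low too: AKR1B1, aldose reductase, was at 94.1, 213 and 307 and 2.92-fold lower (95% interval 2.8 to 3.04), and CYB5A, cytochrome b5, was at 38.9, 33.5 and 127 and 2.92-fold lower (95% interval 2.56 to 3.35).

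Of 16 genes of the IGF axis 6 were lower, and IGF2 was the 1 that was higher, with 3 lower among the 12 that passed in both libraries. IGFBP5, a binding protein that holds IGF in the matrix, was at RPKM 1.43, 1.69 and 6.68 and 4.18-fold lower (95% interval 3.52 to 4.98). IGF2BP1, which binds IGF2 messenger RNA, was at 1.06, 5.0 and 6.14 and 5.17-fold lower (95% interval 4.37 to 6.15). IGF1R, the receptor, was at 0.929, 1.6 and 2.41 and 2.32-fold lower (95% interval 2.11 to 2.55). Imprinted genes, expressed from 1 parental copy, had 5 of 20 lower and 1 higher. DLK1, a paternally expressed Notch-like ligand, was at 0.539, 2.49 and 12.5 and 20.8-fold lower (95% interval 12.2 to 38.4). NNAT, neuronatin, was at 19.5, 47.8 and 73.3 and 3.36-fold lower (95% interval 3.12 to 3.62), and PEG3, a zinc finger protein, was at 9.89, 23.1 and 24.6 and 2.22-fold lower (95% interval 2.1 to 2.35). RTL1, at the DLK1 locus, had 0 stillborn reads, at 0, 0.136 and 1.57, and was at least 108-fold lower (95% interval from 87.7 upwards). Of those 5 lower genes 2 passed in both libraries.

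Decidual genes, products of the maternal lining of the womb, had 3 of 6 lower and 1 higher, or 1 and 1 of the 4 that passed in both libraries. PAEP, glycodelin, was at RPKM 0.127, 0.216 and 4.17 and 29.3-fold lower (95% interval 14 to 73.5). IGFBP1, a secreted IGF binding protein, was at 11, 1.01 and 30.7 and 2.49-fold lower (95% interval 2.26 to 2.75). FOXO1, a transcription factor of decidualization, was the higher one at 2.43, 2.2 and 1.09 and 2.49-fold higher (95% interval 2.0 to 3.11). For IGFBP1 the spontaneous abortion library lay below both others. Lymphocyte markers had 3 of 5 lower and 2 higher, or 2 lower and 1 higher of the 3 that passed in both libraries. GZMA, a granzyme, was at 0.375, 0.63 and 3.46 and 8.24-fold lower (95% interval 3.58 to 23.3). IL7R, a T cell cytokine receptor, was at 3.34, 0.609 and 0.301 and 12.4-fold higher (95% interval 8.41 to 19.1).

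Genes low in the stillborn library at small RPKM included several near its floor. KRT35, a hair keratin, was at RPKM 0.147, 0.669 and 7.47 and 45.4-fold lower (95% interval 20.6 to 124). NDST4, a heparan sulfate sulfotransferase, was at 0.0441, 0.383 and 1.6 and 32.6-fold lower (95% interval 14.7 to 89.6). DNAAF1, an assembly factor of ciliary dynein, was at 0.0243, 0.144 and 1.05 and 38.4-fold lower (95% interval 6.58 to 1549) on 1 stillborn read. HIGD1B, a hypoxia-inducible domain protein, was at 0.0186, 0.387 and 1.24, also on 1 stillborn read. In the spontaneous abortion library each of these lay between the others.

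**Figure D5:**
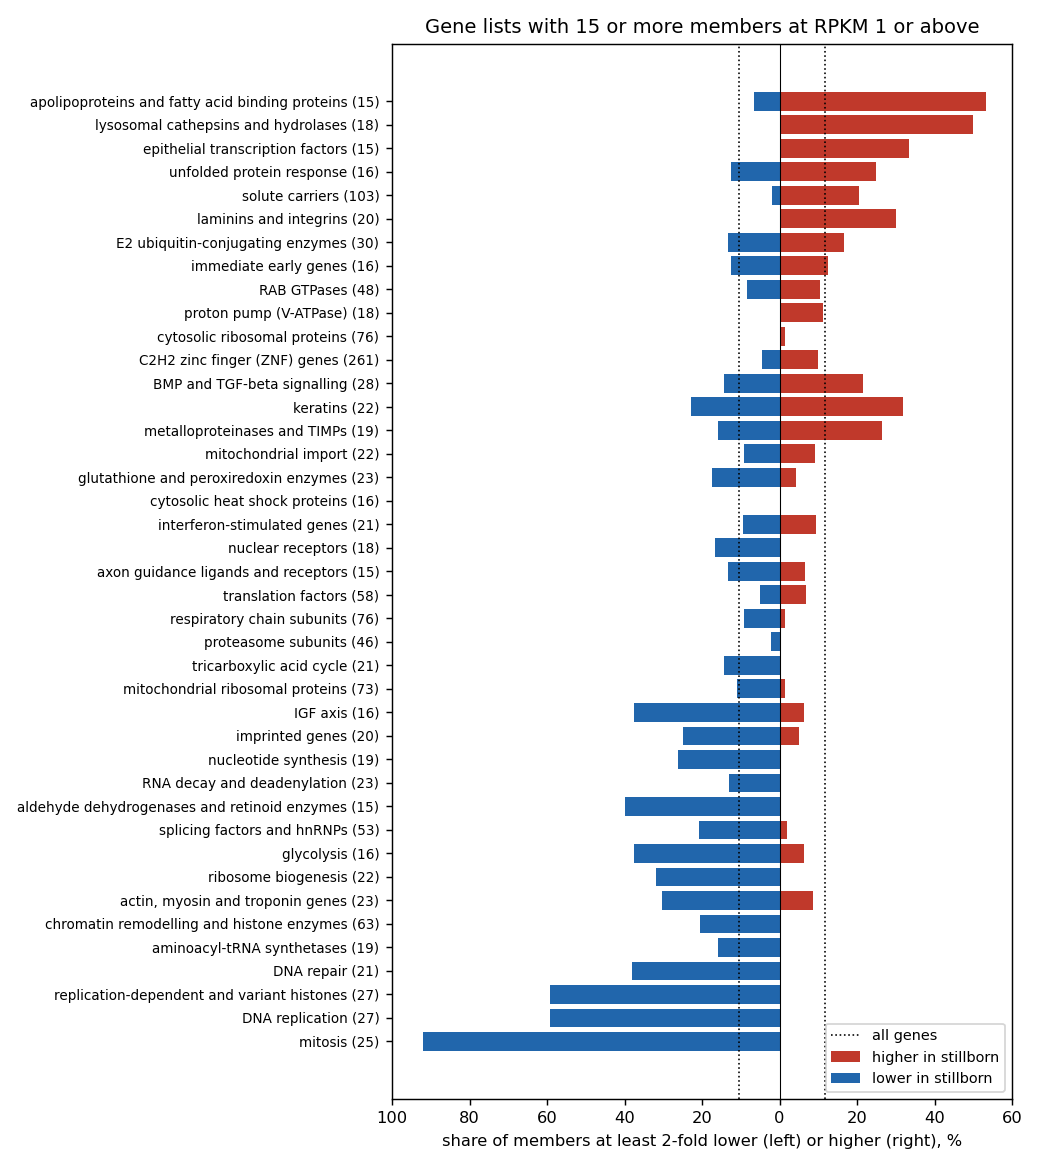
Share of members (x axis, %) at least 2-fold lower (blue, left) or higher (red, right) in the stillborn library, for 41 gene lists with 15 or more members at RPKM 1 or above, the number in brackets, ordered by median log2 ratio. Dotted lines mark all genes, 10.5% lower and 11.6% higher, and lists lie on both sides from apolipoproteins at the top to mitosis at the bottom.

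The chart of list shares shows the whole range together. Zinc finger genes of the ZNF family had 26 of 261 higher and 12 lower, proteasome subunits 0 of 46 higher and 1 lower, and both lists stayed close to or under the shares of all genes. On scaling by total reads the ZNF genes had 16 higher and 19 lower, and the proteasome 6 lower. E2 ubiquitin-conjugating enzymes had 5 of 30 higher and 4 lower, or 4 higher and 1 lower of the 26 that passed in both libraries. The 4 lower of the 30 included UBE2C and UBE2T, of mitosis and DNA crosslink repair. Long noncoding RNAs by RefSeq biotype had 42 of 134 members higher and 19 lower, against 916 and 903 of 8683 protein-coding genes.

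Unnamed genes held the widest gap in the comparison, and these were singled out after their values were seen. LOC103246967 was at RPKM 844, 594 and 0.434 and 2177-fold higher (95% interval 1104 to 5043). LOC103223220 was at 57.6, 48.2 and 0, with 0 reads in the alive library. Both were high in the stillborn and the spontaneous abortion library, as DDX3Y was. In all 9 genes were at RPKM 5 or above in those libraries and under 0.5 in the alive one, of which DDX3Y was the 1 with a symbol, and RefSeq paired none of the other 8 with a name.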

How the data were processed

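Cell-free RNA from the amniotic fluid supernatant of 3 vervet monkeys was sequenced, 1 library per status. Per the labels' protocols, RNA was amplified by the Ovation SPIA method, which is not described there as using molecular identifiers, and bcl2fastq 2.17, STAR and HTSeq were used, per the submitters' processing notes. Of the build, the annotation, the strand setting and the other versions nothing is given in the sources. The authors deposited RPKM, 1 value per gene and library.

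Within a gene the values stood in whole-number ratios, from which library totals of 17749954, 29926352 and 20220899 and the smallest whole reads were solved. This gave reads for 23275 of the 23276 genes above 0. Reads are lower bounds, which by itself makes the intervals wider. Copies made in amplification were counted as separate reads, so the intervals may still be too narrow. The reads gave TMM factors of 0.936, 1.02 and 1.05 (30% and 5% trimmed). Of 17250 LOC names, 825 took a symbol from RefSeq (assembly mChlSab1.0.hap1). Overlapping and antisense genes cannot be told apart.

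A gene was counted as higher or lower when its ratio after scaling reached 2-fold (or 4-fold) and the exact Clopper-Pearson 95% interval excluded 1. No test was possible with 1 library per group. The script was tested on simulated data. The genes and the 113 lists were chosen with earlier results of these data known. Genes were named by rule: in each of 4 abundance ranges up to 6 with the highest and 6 with the lowest ratio on at least 30 reads, in each list the 2 with the highest RPKM and those past 2-fold, and Y-linked genes. Not all are printed, and some are not reported here. Work was done in Python 3.11.15 with numpy 2.4.6, pandas 2.3.3 and scipy 1.17.1.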

Additional observations from a re-analysis of the deposited data

How the results depend on the processing

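In all, 9 alternatives were run. Among counts of genes, scaling by median-of-ratios, upper quartile or total reads, log2(RPKM + 0.1) and thinning to the smaller total stayed within 1.5 times. On log2(RPKM + 1), 762 genes were at least 2-fold higher and 523 lower, and at 4-fold 114 and 39. With RPKM of at least 5 in either library, 5922 genes were compared, of which 521 and 483 passed 2-fold and 118 and 75 passed 4-fold. A mean RPKM of at least 1 gave 159 genes 4-fold lower. With no RPKM filter and at least 30 reads, 13472 genes gave 636 and 436 at 4-fold. The fall with the RPKM limits comes with fewer genes compared, and the shares of genes past 2-fold and 4-fold fell as well. The kallikrein median log2 ratio turned to -2.92 at RPKM of at least 5 and -1.39 at a mean RPKM of at least 1, and the complement median to -0.34 at RPKM of at least 5, as members dropped out. Counts of list members also moved on scaling by total reads, and only some of these moves are given beside their lists. Among the others, laminins and integrins went from 6 to 4 higher, and BMP and TGF-beta signalling from 6 to 4 higher. Splicing factors went from 11 to 15 lower, respiratory chain genes from 7 to 10 and aminoacyl-tRNA synthetases from 3 to 5. No paired analysis was possible because each group holds 1 library. Genes with a few reads have wide intervals, and the spread between animals is not known.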
